A study of Rattus norvegicus with 12 samples.

Results

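The right inferior colliculus of rats deafened in the right ear was compared with the right inferior colliculus of sham-operated rats. The comparison used 6 of the 12 arrays in the series, 3 per group, chosen by sample titles that name the side, the structure and the group. Each of 18166 genes was represented by its brightest probe, by the mean over all 12 arrays, among the probes listed with exactly 1 gene symbol. The animals were Sprague-Dawley rats, given as SD in the labels, with no allele or genotype named. In the deaf arm 20 rats had the right cochlea ablated. In the control arm 20 rats had a sham operation, an incision behind the ear with no drilling of the bulla. Tissue was taken 2 weeks later in both arms, and the labels give no age or sex. The right colliculus is thus on the side of the ablated ear. Whether each array was made from 1 rat or from pooled rats is not stated. The p-values therefore reflect array-to-array spread alone, some of which may be technical.

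The labels disagree about the tissue. Hippocampus is named in the title of the series and in the descriptions, which also call the deaf arm a noise group, whereas sample titles, sources and tissue entries give the inferior colliculus. Expression was set against both. Slc17a6, which encodes the vesicular glutamate transporter of most midbrain excitatory neurons, read 9.67 to 9.99 on the 6 right arrays, on a log2 intensity scale whose median was 5.34 on each array. Tfap2d, a transcription factor gene of the auditory midbrain, read 9.39 to 9.79, and Meis2, a tectal transcription factor gene, 9.12 to 9.46. Among forebrain genes, Neurod6 of cortical and hippocampal pyramidal cells read 3.20 to 4.08, around the lower quartile of all values (3.78), and Tbr1, a cortical transcription factor gene, read 4.23 to 4.82. The dentate gyrus gene Prox1, which is also expressed outside the hippocampus, read 6.01 to 6.47. Of 19 measured forebrain and hippocampus markers only 2 had a mean below the lower quartile, and levels of different probes cannot be ranked, so these readings do not settle the label.

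The inferior colliculus is the midbrain station where ascending auditory pathways converge. Each side is driven mainly by the opposite ear, so the right colliculus keeps its main drive from the intact left ear after a right cochlear ablation, and loses the smaller input from its own side. Its projection neurons are glutamatergic or GABAergic, and it lies close to the cerebellum, the periaqueductal grey and the raphe and other brainstem nuclei, so a dissection can carry in neighbouring tissue. In bulk tissue of this kind, fewer cells of a type and less RNA per cell cannot be told apart.

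Right controls 1 and 3 stood apart from the other right arrays. Over all genes, the root mean square deviation from the group mean was 0.185 and 0.195 on these arrays and 0.145 to 0.155 on the others. The first principal component of the 6 right arrays held 35.1% of the variance, with right control 1 at -19.1, right deaf 2 at -14.1 and right control 3 at 25.7. Values without right controls 1 and 3 are given beside many of the list medians and genes described. Such values rest on right control 2 alone, whose spread is then assumed to be that of the other groups.

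No gene passed the test. By limma with Benjamini-Hochberg adjustment, 0 of 18166 genes (0%) had an adjusted p under 0.05, and the smallest was 1.00, so all differences below are values that did not pass. At an unadjusted p under 0.05 there were 783 genes (4.31%), 385 with a higher mean in deaf arrays (2.12%) and 398 with a lower one (2.19%). For 1358 genes (7.48%) the 3 deaf arrays all lay above or all below the 3 control arrays, 661 higher (3.64%) and 697 lower (3.84%). The median difference over all genes was 0.0014, with 9179 genes higher (50.5%) and 8986 lower (49.5%). An exact permutation test of 3 arrays against 3 cannot give a p below 0.1. On the left side limma also called 0 genes (0%), with 670 at an unadjusted p under 0.05 (3.69%). The difference between the sides, the right change minus the left change, called 0 as well (0%), against 622 at an unadjusted p under 0.05 (3.42%).

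Large differences were few. Only Gabra6, Slc17a7 and Cbln3 differed by more than 1 on the log2 scale, all lower in deaf arrays. Differences above 0.5 were found for 115 genes, 39 higher and 76 lower. Among the 325 non-overlapping genes with a difference of at least 0.3, 148 were higher and 177 lower.

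**Figure D1:**
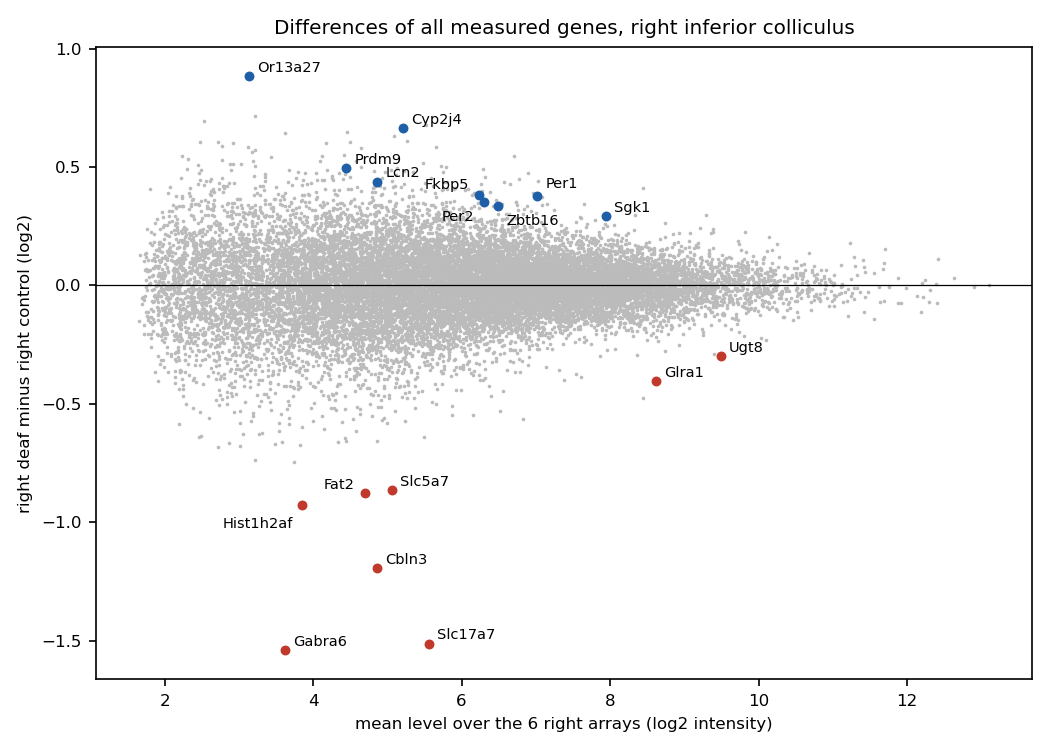
Each grey point is 1 of 18166 genes, with the mean log2 intensity over the 6 right arrays on the x axis and the log2 difference, right deaf minus right control, on the y axis. Red and blue points are genes described in the text, lower and higher in deaf arrays. Gabra6, Slc17a7 and Cbln3 lie below -1, and no gene lies above 0.89.

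Genes used here as markers of cerebellar granule neurons, Slc17a7 among them, had the largest differences. Slc17a7 (Entrez 116638) encodes vesicular glutamate transporter 1, which loads glutamate into the vesicles of cortical and cerebellar granule neurons. It read 7.14, 5.81 and 6.0 on right controls 1, 2 and 3 and 4.90, 4.86 and 4.65 on right deaf arrays 1, 2 and 3. The groups did not overlap, and right control 1 was more than 1 log2 unit above the other controls. The difference was -1.51 (SE 0.26, n = 3 per group). It was -1.10 without right control 1 and -1.0 without right controls 1 and 3, so right control 2 alone also lay above all deaf arrays. On the left, control and deaf means were 5.16 and 5.10. The transporter genes for the other vesicular glutamate carriers differed little: Slc17a6 by 0.03 (SE 0.10) and Slc17a8 by -0.13 (SE 0.12).

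Cbln3 encodes a granule cell protein of the cerebellin family that works at synapses onto Purkinje cells. It read 5.34, 4.78 and 6.23 on the right controls and 4.29, 4.37 and 4.13 on the right deaf arrays, without overlap. The difference was -1.19 (SE 0.28), and -0.52 without right controls 1 and 3. Gabra6, the granule cell subunit of GABA-A receptors, read 3.86, 3.99 and 5.30 in controls and 2.51, 3.19 and 2.83 in deaf arrays. Right control 3 was again the highest array, and the deaf arrays lay below the lower quartile of all values, so background may compress the difference. The difference was -1.54 (SE 0.37), or -1.15 without right controls 1 and 3. Fat2, which encodes a large cadherin of granule cell parallel fibres, read 5.03, 4.64 and 5.76 against 4.30, 4.47 and 4.01, a difference of -0.88 (SE 0.26) that was -0.38 without those 2 arrays.

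Of 15 granule cell markers, all measured, 12 had lower and 3 higher means in deaf arrays, with a median of -0.18. For 7 the arrays did not overlap in the lower direction and for 1, the potassium channel gene Kcnk9, in the higher, together 53.3% of the list against 7.48% of all genes. None passed over all genes, and the list was chosen with earlier results on these arrays known. The 7 were the 4 genes above together with Cbln1 (-0.44, SE 0.16), which encodes a secreted synapse organiser, Neurod1 (-0.43, SE 0.18), a neuronal differentiation factor gene, and Etv1 (-0.30, SE 0.094), an ETS factor gene. The list median was -0.047 without right controls 1 and 3. Neurod1 was then at -0.05, whereas Cbln1 was at -0.62. On the left the median was 0.015.

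Markers of neighbouring tissue read unequally across the right arrays. The granule cell score, an array's average over members of log2 values centred by gene, was 0.34, 0.075 and 0.48 on right controls 1, 2 and 3 and -0.17, -0.10 and -0.20 on the deaf arrays. Slc17a7, Cbln3, Gabra6 and Fat2 are members of that list, so the score in part restates their own values. For 13 Purkinje cell markers the score was 0.26 on right control 3 and -0.03 to 0.02 on the other 5 right arrays. Of these markers 4 were higher and 9 lower in deaf arrays, with a median of -0.043. Non-overlapping members were 1 higher and 1 lower, 15.4% of the list against 7.48% of all genes. The Purkinje gene Car8, which encodes a carbonic anhydrase-related protein, read 6.51, 6.35 and 7.48 in controls and 6.15, 6.29 and 6.31 in deaf arrays. Its difference of -0.53 (SE 0.23) was -0.10 without right controls 1 and 3. Right control 3 therefore carried the highest reading of both cerebellar lists. The part of these markers in the differences of Slc17a7, Cbln3, Gabra6 and Fat2 was not tested.

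Right control 1 was highest for another set of genes, those of brainstem nuclei. Slc6a5, the glycine transporter of glycinergic neurons, read 7.23, 5.56 and 4.65 in controls and 5.06, 5.14 and 5.33 in deaf arrays. The control arrays spanned the deaf arrays, and the difference of -0.64 (SE 0.46) changed sign, to 0.07, without right control 1. Slc5a7, the choline transporter of cholinergic neurons, read 6.41, 5.53 and 4.53 against 4.31, 5.01 and 4.57 (difference -0.86, SE 0.37; -0.40 without right control 1). Slc18a3, which encodes the vesicular acetylcholine transporter, read 5.56, 4.46 and 4.30 against 4.22, 4.03 and 4.11. The hindbrain patterning gene Hoxa2 was at 3.98 on right control 1 and at 2.63 to 2.84 on the other right arrays.

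Serotonergic genes varied within both groups. Tph2, the rate-limiting enzyme of neuronal serotonin synthesis, read 7.64, 5.11 and 4.77 in controls and 4.80, 7.50 and 5.59 in deaf arrays. Slc6a4, the serotonin transporter, read 6.94, 4.91 and 4.71 against 5.15, 6.67 and 5.21. Both genes were high on right control 1 and right deaf 2 and lower on the remaining right arrays, so the group means of Tph2 differed by only 0.12 (SE 0.90). Of 14 measured genes of hindbrain and monoaminergic nuclei, 5 were higher and 9 lower, with a median of -0.04 and 0 non-overlapping. The median was -0.26 without right control 3 and 0.014 without right controls 1 and 3. The score of the list was 0.54 on right control 1, 0.16 on right deaf 2 and -0.27 to -0.08 on the other 4. Slc17a7 was highest on right control 1, where these brainstem genes were highest too, whereas Cbln3, Gabra6 and Fat2 were highest on right control 3.

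**Figure D2:**
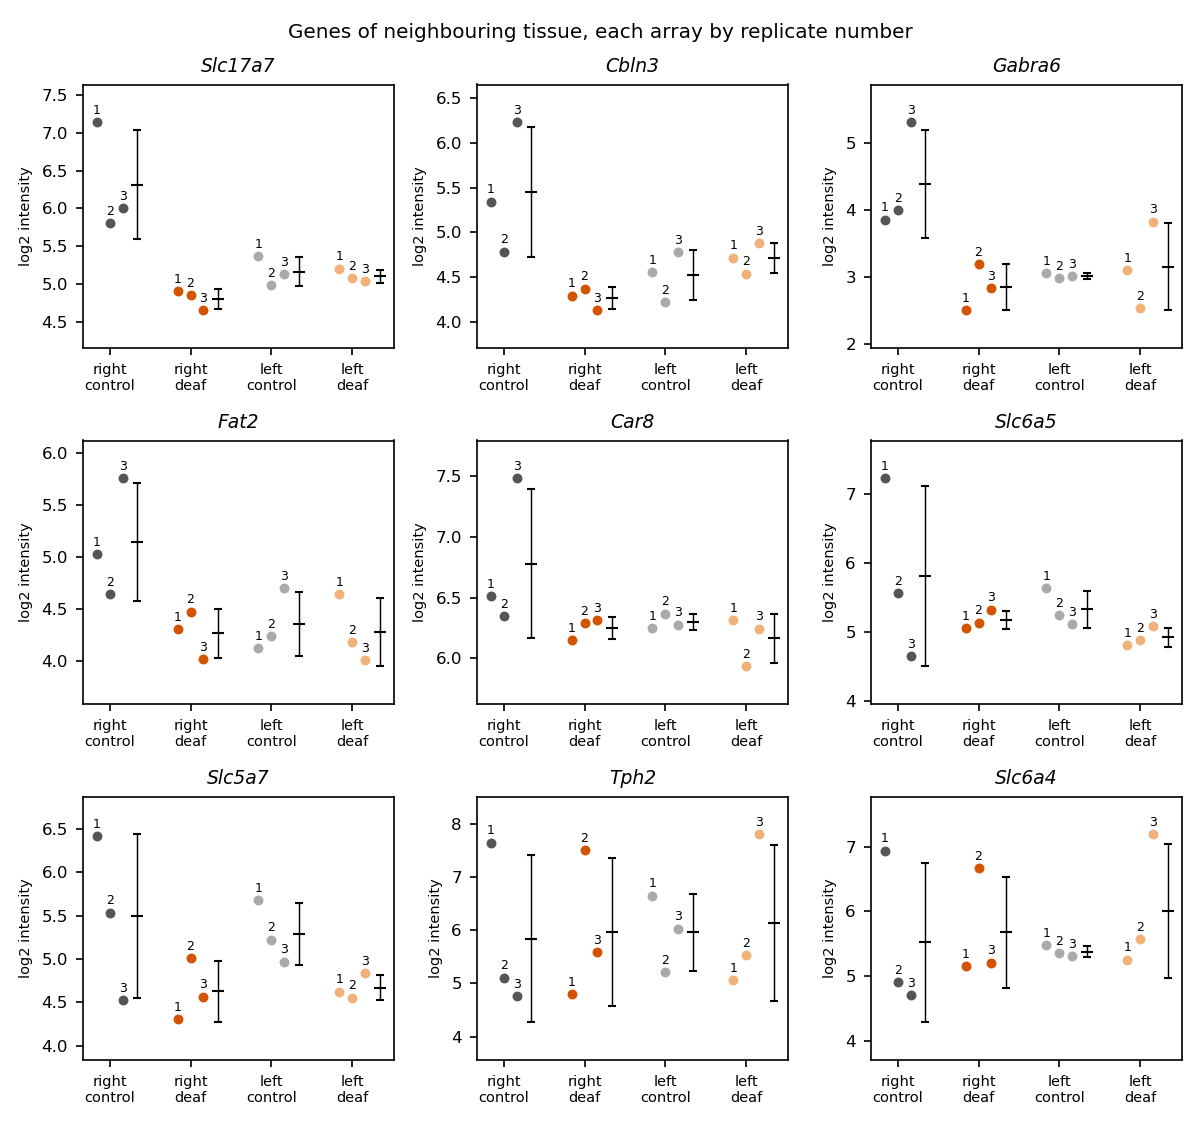
Log2 intensity of 9 genes on every array; numbers are replicate numbers, and bars beside the points are the mean and SD of 3 arrays. Slc17a7 is highest on right control 1 and lowest on the right deaf arrays. Cbln3, Gabra6, Fat2 and Car8 peak on right control 3, Slc6a5 and Slc5a7 on right control 1, and Tph2 and Slc6a4 on right control 1, right deaf 2 and left deaf 3.

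Genes of the coverings and fluid spaces of the brain also separated arrays within groups. The score of 17 measured meningeal and fibroblast markers was 0.48, -0.16 and -0.29 on the right controls and 0.10, 0.44 and -0.55 on the deaf arrays. Its median difference was 0.00, between -0.23 and 0.27 with 1 array left out: the lower bound came from omitting right deaf 2 and the upper from omitting right deaf 3. The median difference was 0.14 without right controls 1 and 3. Of 13 ependymal cilium markers 10 were higher in deaf arrays, with a median of 0.16 and 0 non-overlapping. The median was 0.30 without right control 1 and 0.064 without right deaf 2. Spag6l, a gene of the ciliary axoneme, read 6.70, 6.36 and 6.26 against 6.63, 7.24 and 7.08. Its difference was 0.54 (SE 0.21), and right deaf 1 lay inside the control range.

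Glucocorticoid-responsive genes had higher means in the right deaf colliculus. Glucocorticoids act through a nuclear receptor that binds DNA and induces, among others, genes that limit its own signal. Of 24 listed genes 23 were measured: 19 were higher and 4 lower, with a median of 0.13 against 0.0014 over all genes. The arrays did not overlap for 7 higher members, Fkbp5, Sgk1, Zbtb16, Lcn2, Per1, Nfkbia and Hif3a, and for 1 lower, Gjb6, together 34.8% of the list against 7.48% of all genes, and none passed. The list was chosen with earlier results on these arrays known, so its direction is no independent evidence. Its median was 0.13 without right controls 1 and 3. The left median was 0.089.

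Fkbp5 (Entrez 361810), a chaperone partner that restrains the glucocorticoid receptor, read 6.22, 5.87 and 6.03 on the right controls and 6.42, 6.41 and 6.43 on the deaf arrays. The deaf arrays lay within a narrow band just above the controls. The difference was 0.38 (SE 0.091), but the left means were 6.36 in control and 6.35 in deaf arrays, so the right controls were the low group. The right change exceeded the left one by 0.39 (SE 0.13), which did not pass. Sgk1, a steroid-induced kinase, read 7.86, 7.72 and 7.80 against 8.13, 8.01 and 8.12, a difference of 0.29 (SE 0.074), and on the left it was 0.31 higher. Sgk1 thus differed by about the same on both sides.

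Zbtb16, a zinc finger transcription factor gene, read 6.32, 6.32 and 6.33 in controls and 6.80, 6.68 and 6.51 in deaf arrays, a difference of 0.34 (SE 0.090), with 0.20 on the left. Lcn2, which encodes a secreted lipocalin of reactive glia, read 4.73, 4.68 and 4.51 against 5.34, 5.01 and 4.89, a difference of 0.44 (SE 0.12), with -0.09 on the left. Hif3a, a hypoxia-inducible factor gene, differed by 0.32 (SE 0.12) and Nfkbia, the inhibitor of NF-kappa-B, by 0.15. Other well-known targets were closer to 0 at their brightest probe: Tsc22d3 at 0.15 (SE 0.10), Klf9 at 0.00 (SE 0.090) and Mt2A at 0.03 (SE 0.14). A dimmer Mt2A probe differed by 0.26. The receptor gene itself, Nr3c1, read 7.86, 7.87 and 7.82 in controls and 7.73, 7.78 and 7.69 in deaf arrays, a non-overlapping difference of -0.12 (SE 0.080), with -0.17 on the left.

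Clock genes were higher by less. In the circadian clock CLOCK and BMAL1 activate the Per and Cry genes through E-boxes, and PER and CRY proteins repress that activation. Of 18 measured genes (of 22 listed) 15 were higher and 3 lower, with a median of 0.070 (0.045 without right controls 1 and 3, and 0.035 without right deaf 3). The left median was 0.050. Only Per1 and Bhlhe40 were non-overlapping (11.1%, against 7.48% of all genes), and Per1 is also counted in the glucocorticoid list. Per1 read 6.89, 6.80 and 6.78 in controls and 7.21, 7.17 and 7.23 in deaf arrays, a difference of 0.38 (SE 0.12) that was 0.36 to 0.41 with any right array left out. Per2 read 6.15, 6.33 and 5.88 against 6.53, 6.57 and 6.31, with right deaf 3 just below right control 2. Its difference of 0.35 (SE 0.12) was 0.14 without right controls 1 and 3. Neither rose by the test. The output gene Tef differed by 0.12 (SE 0.085; 0.01 without right controls 1 and 3), Dbp by 0.06 (SE 0.13), Nr1d1, a repressor of the loop, by 0.06 (SE 0.13), and Ciart by -0.01 (SE 0.12). The labels give no hour of tissue collection.

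**Figure D3:**
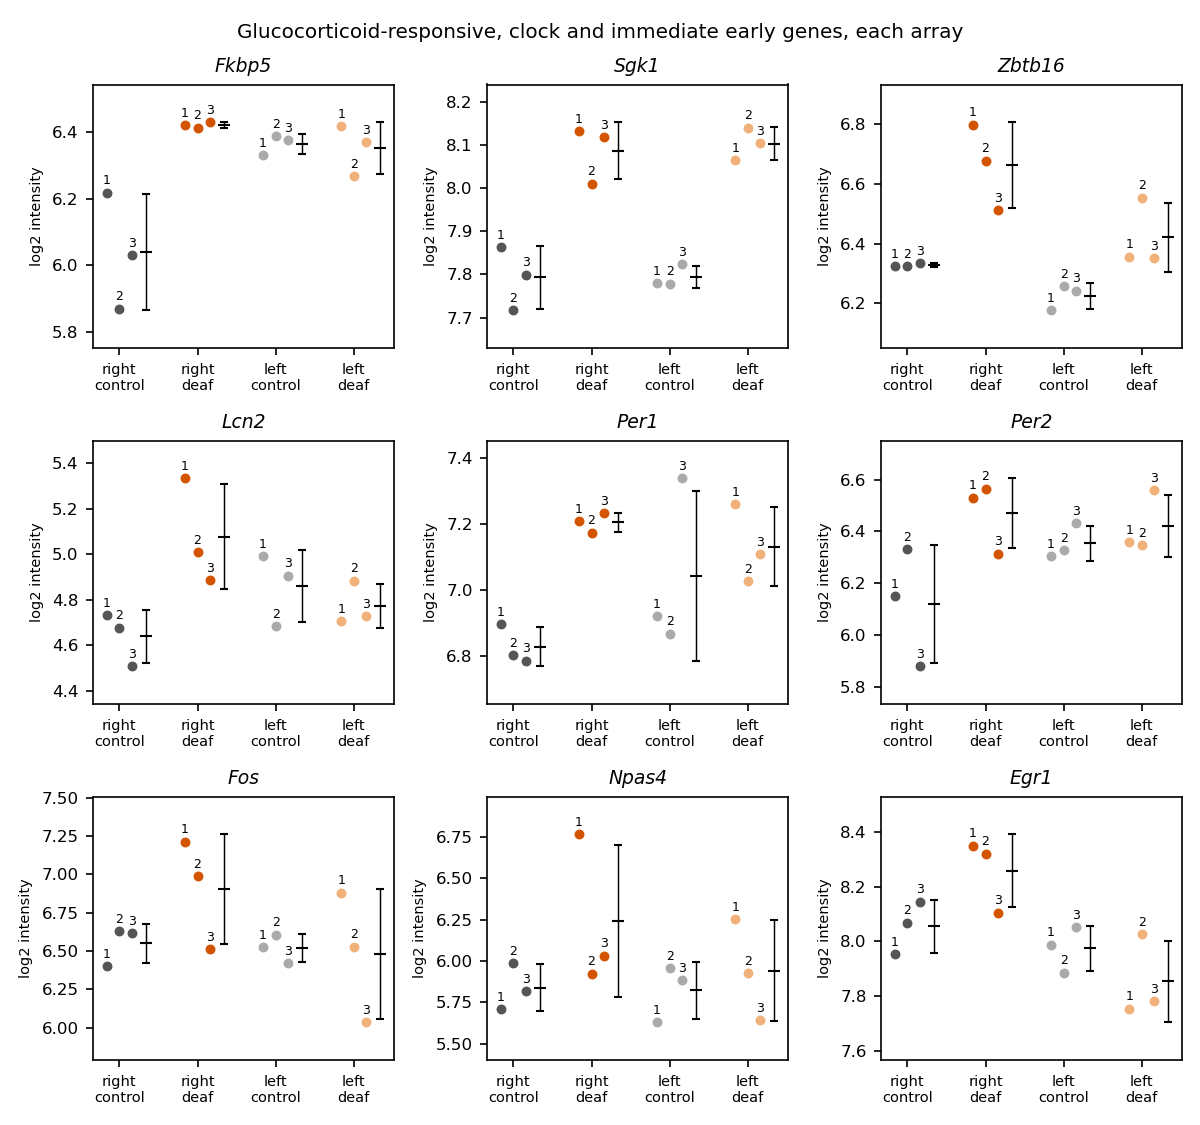
Log2 intensity of 9 genes on every array; numbers are replicate numbers, and bars beside the points are the mean and SD of 3 arrays. The right deaf arrays of Fkbp5, Sgk1, Zbtb16, Lcn2 and Per1 lie above all right controls, while the left controls of Fkbp5 lie near the right deaf level.

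The 250 bases before the annotated start of the genes that led these lists were read from RefSeq (GRCr8) to show what they hold of the motifs searched on either strand. Capitals mark a match, and a sequence with no capitals holds none. The motifs were the E-box CACGTG, the related CACGTT (added after the data were seen), the cAMP element TGACGTCA, the full glucocorticoid element and its opening letters AGAACA, which lie within it. Zbtb16 had no entry. Per1 lies at chr10:54304126-54304375 on the plus strand, Per2 at chr9:99496994-99497243 on the minus strand, Tef at chr7:115206577-115206826 on the plus strand, Fkbp5 at chr20:6543556-6543805 on the minus strand and Sgk1 at chr1:24807232-24807481 on the minus strand, all 5′ to 3′ on the gene's strand.
Per1: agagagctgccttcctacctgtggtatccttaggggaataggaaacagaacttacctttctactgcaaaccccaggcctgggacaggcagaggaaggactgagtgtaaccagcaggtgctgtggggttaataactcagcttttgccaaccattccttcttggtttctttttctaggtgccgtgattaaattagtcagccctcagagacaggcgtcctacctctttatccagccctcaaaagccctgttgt
Per2: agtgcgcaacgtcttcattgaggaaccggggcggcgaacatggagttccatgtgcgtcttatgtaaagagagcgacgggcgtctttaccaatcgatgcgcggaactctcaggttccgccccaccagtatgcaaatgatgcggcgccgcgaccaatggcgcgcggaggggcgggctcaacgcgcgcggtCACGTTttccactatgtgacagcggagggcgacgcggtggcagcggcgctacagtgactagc
Tef: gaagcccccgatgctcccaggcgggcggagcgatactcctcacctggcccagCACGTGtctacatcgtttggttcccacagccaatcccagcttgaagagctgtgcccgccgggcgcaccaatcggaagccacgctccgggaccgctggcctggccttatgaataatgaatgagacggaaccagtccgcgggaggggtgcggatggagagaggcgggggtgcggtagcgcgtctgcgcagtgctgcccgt
Fkbp5: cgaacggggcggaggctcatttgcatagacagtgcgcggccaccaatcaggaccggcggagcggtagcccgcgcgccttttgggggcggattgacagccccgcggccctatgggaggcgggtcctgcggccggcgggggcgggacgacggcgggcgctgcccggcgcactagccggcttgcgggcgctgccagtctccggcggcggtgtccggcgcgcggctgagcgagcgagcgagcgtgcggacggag
Sgk1: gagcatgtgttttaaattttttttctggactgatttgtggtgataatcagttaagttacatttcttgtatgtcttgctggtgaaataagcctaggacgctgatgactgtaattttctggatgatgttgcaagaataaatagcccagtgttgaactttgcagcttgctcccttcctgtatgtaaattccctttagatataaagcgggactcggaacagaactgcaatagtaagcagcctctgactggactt

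CACGTT began 62 bases before the start of Per2, and CACGTG 198 bases before that of Tef. CACGTG was found in 4 of 16 clock promoters (25.0%), those of Bhlhe40, Bhlhe41, Ciart and Tef, in 4 of 22 promoters of the glucocorticoid list (18.2%) and in 1872 of all 33469 promoters (5.59%). CACGTT was found in 3 of 16 clock promoters (18.8%), Cry2, Nr1d1 and Per2, and in 4.07% of all. The full glucocorticoid element was in 0 of 22 promoters of that list and in 4 of all 33469 (0.012%), and AGAACA in 1 of 22 (4.55%), against 17.5% of all. TGACGTCA was in 3 of 14 promoters of immediate early factor genes (21.4%), Ier2, Jund and Maff, against 1.59% of all. Each listed gene was represented by 1 promoter entry, whereas the shares of all promoters count every entry, so the shares are not strictly alike. These matches describe letters in a short window and are not evidence of binding.

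Immediate early transcription factors, which neurons induce within minutes of activity, were higher on average but uneven across arrays. Of 19 measured genes (of 20) 15 were higher and 4 lower, with a median of 0.084. Only Jun was non-overlapping (5.26% of the list, against 7.48% of all genes). Jun differed by 0.084 at its brightest probe and by -0.088 at a dimmer one. The left median was -0.015. Npas4, an activity-dependent factor gene, read 5.71, 5.99 and 5.82 in controls and 6.77, 5.92 and 6.03 in deaf arrays, so right deaf 1 carried its difference of 0.40 (SE 0.21), which was 0.14 without that array. Fos read 6.40, 6.63 and 6.62 against 7.21, 6.99 and 6.51 (0.35, SE 0.20). Egr1 read 7.95, 8.07 and 8.15 against 8.35, 8.32 and 8.10 (0.20, SE 0.10). On each of these genes 1 or more deaf arrays lay inside the control range. Omitting right deaf 1 gave a list median of 0.017, and omitting right deaf 3 gave 0.16. It was 0.13 without right controls 1 and 3. Among 16 effector genes 7 were higher and 9 lower (median 0.00), with 6.25% non-overlapping against 7.48% of all genes. Of these, Rgs2, a regulator of G protein signalling, was the non-overlapping one, at 0.23 (SE 0.13; 0.05 without right controls 1 and 3) on the right and -0.26 on the left.

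Vgf, whose secreted peptides modulate synapses, had the largest left difference among the neuropeptide genes, -0.88, and on the right read 8.02, 8.10 and 8.07 in controls and 8.09, 8.01 and 8.09 in deaf arrays. The right arrays overlapped completely. Penk, the enkephalin precursor gene, differed by 0.05 (SE 0.092) on the right and -0.34 on the left. Sst, the somatostatin gene, differed by 0.16 (SE 0.12). Of 24 neuropeptide genes, all measured, 17 were higher on the right (median 0.051). Of the 24, 1 was non-overlapping, in the lower direction (4.17%, against 7.48% of all genes). Without right controls 1 and 3 the median was 0.0045, and the left median was -0.074. These comparisons between the sides did not pass for any gene.

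**Figure D4:**
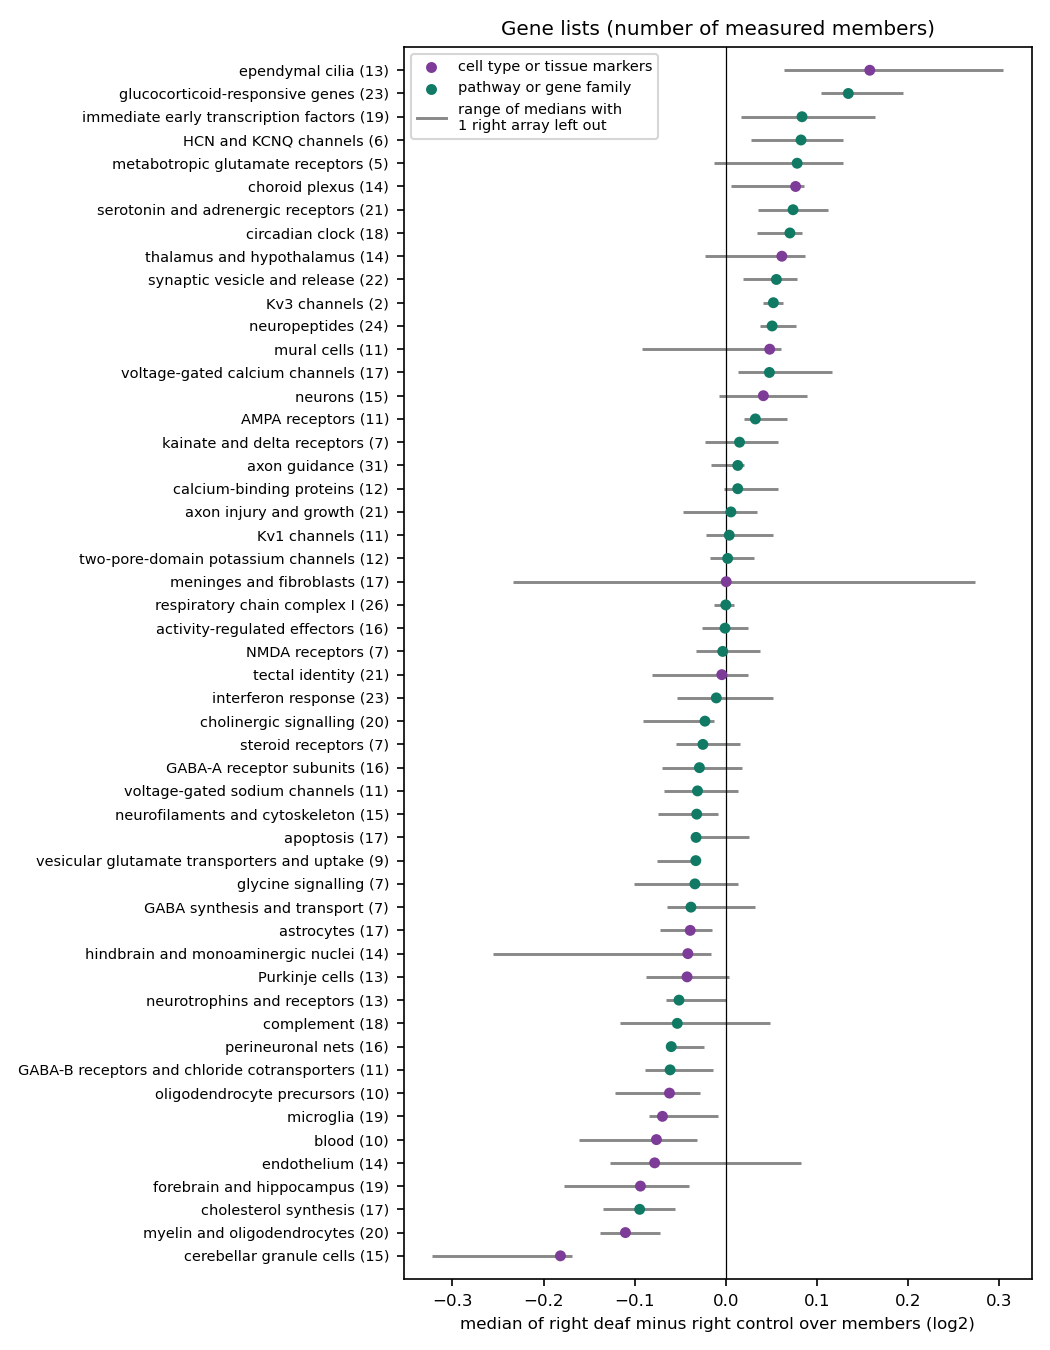
Each point is the median log2 difference, right deaf minus right control, over the measured members of a gene list, whose number is in brackets; grey lines span the medians with 1 right array left out. The granule cell list has the lowest median (-0.18) and the ependymal list the highest (0.16), and the line of the meningeal list runs from -0.23 to 0.27. The median of 26 of the 52 lists changed sign with at least 1 array left out.

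Myelin genes had lower means. Oligodendrocytes wrap auditory axons in myelin, whose sheath proteins and lipids these genes encode or make. Of 20 measured genes (of 24) 18 were lower and 2 higher, with a median of -0.11, and 6 were non-overlapping, all lower: Mbp, Cnp, Ugt8, Opalin, Aspa and Tspan2. These are 30.0% of the list, against 3.84% of all genes that were lower without overlap. None passed, and this list too was chosen with earlier results on these arrays known. Ugt8, which makes the myelin lipid galactosylceramide, read 9.82, 9.58 and 9.51 in controls and 9.32, 9.37 and 9.33 in deaf arrays, a difference of -0.30 (SE 0.10), with -0.26 on the left. Cnp, a myelin-associated phosphodiesterase gene, read 10.33, 10.21 and 10.12 against 9.89, 10.06 and 10.02, a difference of -0.23 (SE 0.087), with -0.23 on the left. Mbp, myelin basic protein, read 11.78, 11.54 and 11.58 against 11.42, 11.52 and 11.52. Its difference of -0.14 was -0.05 without right controls 1 and 3, and a much dimmer Mbp probe differed by 0.065. Of 10 oligodendrocyte precursor markers 8 were lower (median -0.062; -0.031 without right controls 1 and 3, and -0.12 without right deaf 3) and 0 non-overlapping.

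Cholesterol synthesis genes, which supply much of the lipid of myelin, were lower in 14 of 17 measured members (of 22), with a median of -0.095 (-0.056 without right control 1), and the left median was -0.12. Mvd, Idi1, Fdft1 and Msmo1 were lower without overlap, 23.5% of the list against 3.84% of all genes. Idi1, an isomerase of the mevalonate pathway, read 7.24, 7.04 and 7.15 in controls and 6.88, 6.97 and 6.83 in deaf arrays (-0.25, SE 0.081). Mvd, the decarboxylase before it, read 6.06, 6.50 and 6.15 against 5.77, 6.0 and 5.95 (-0.33, SE 0.14). Without right controls 1 and 3 Idi1 was at -0.15 and Mvd at -0.60. None passed, and the list was chosen with earlier results on these arrays known.

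Transmitter receptor genes showed small differences of both signs. In the NMDA receptor family, Grin1, the obligatory subunit, read 8.74, 8.89 and 8.68 in controls and 8.98, 8.91 and 8.95 in deaf arrays (0.18, SE 0.079), and Grin2a differed by 0.16 (SE 0.11), both without overlap. Without right controls 1 and 3 Grin1 was at 0.06 and Grin2a at 0.09. The 7 members had a median of 0.00, with 3 higher and 4 lower. Grin1 and Grin2a, the non-overlapping members, were 28.6% of the list, against 7.48% of all genes. Of 11 AMPA receptor and auxiliary genes 8 were higher (median 0.032; -0.030 without right controls 1 and 3) and 0 non-overlapping. Among 16 GABA-A receptor genes 7 were higher and 9 lower (median -0.029; 0.018 without right control 2 and -0.075 without right controls 1 and 3). Apart from Gabra6, the retinal-type subunit Gabrr1 had the largest difference, with 4.88, 5.50 and 5.03 against 4.30, 4.92 and 4.64 (-0.51, SE 0.18), and right deaf 2 lay inside the control range. It was at -0.88 without right controls 1 and 3.

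Glra1, the adult glycine receptor subunit of brainstem and spinal cord, read 9.17, 8.79 and 8.50 in controls and 8.58, 8.54 and 8.13 in deaf arrays, a difference of -0.40 (SE 0.16) that was -0.23 without right control 1. Its highest array was again right control 1. The GABA synthesis genes Gad1 and Gad2 differed by 0.04 (SE 0.12) and 0.04 (SE 0.079). Of 21 serotonin and adrenergic receptor genes 17 were higher and 4 lower (median 0.074; 0.035 without right control 2 and 0.11 without right controls 1 and 3). Adra2c, an inhibitory noradrenaline receptor gene, was the non-overlapping one (4.76% of the list, against 7.48% of all genes). It read 6.16, 6.19 and 5.91 against 6.31, 6.35 and 6.35 (0.25, SE 0.085, and 0.14 without right controls 1 and 3).

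Among ion channels, Scn4b, a sodium channel beta subunit of fast-firing neurons, read 8.24, 8.05 and 7.99 in controls and 7.75, 7.94 and 7.78 in deaf arrays (-0.27, SE 0.10), with 0.11 on the left. Kcnk10, a background potassium channel gene, read 5.95, 5.94 and 5.52 against 5.94, 6.11 and 6.20 (0.28, SE 0.12), and was at 0.14 without right controls 1 and 3. Medians were 0.083 for 6 HCN and KCNQ channel genes, 0.048 for 17 voltage-gated calcium channel genes, -0.031 for 11 sodium channel genes and 0.00 for 11 Kv1 and 12 two-pore-domain potassium channel genes. The HCN and KCNQ median was 0.028 without right control 3 and 0.043 without right controls 1 and 3. The calcium channel median ran from 0.013 without right control 1 to 0.12 without right control 3, and the sodium channel median was 0.014 without right deaf 3. The Kv3 genes Kcnc1 and Kcnc2, of fast-spiking auditory neurons, differed by 0.01 (SE 0.10) and 0.09 (SE 0.096).

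Presynaptic and cytoskeletal genes were close to 0 as groups, with exceptions. Sv2c, a synaptic vesicle glycoprotein gene, read 7.82, 7.57 and 7.35 in controls and 7.25, 7.12 and 7.17 in deaf arrays, a non-overlapping difference of -0.40 (SE 0.13), with -0.39 on the left. Of 22 vesicle and release genes 16 were higher (median 0.055; -0.034 without right controls 1 and 3). Nefh, the heavy neurofilament chain of large axons, read 9.76, 9.47 and 9.42 against 9.21, 9.25 and 9.31 (-0.29, SE 0.11; -0.18 without right control 1). Prph, the intermediate filament of motor and sensory neurons, read 5.83, 5.12 and 4.91 against 4.37, 5.24 and 4.51, highest on right control 1. Sox11, a transcription factor gene of growing neurons, read 5.78, 6.0 and 5.85 against 6.18, 6.12 and 6.19 (0.29, SE 0.12; 0.17 without right controls 1 and 3), while Gap43, a growth cone protein gene, differed by 0.00 (SE 0.088).

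Genes of the extracellular matrix and of axon guidance differed in both directions. Crtac1, a cartilage acidic protein gene expressed in neurons, read 6.73, 6.71 and 6.61 in controls and 6.87, 7.05 and 7.10 in deaf arrays (0.32, SE 0.096). Hapln1, which links hyaluronan to proteoglycans in perineuronal nets, was lower by 0.17 (values 6.38, 6.40 and 6.62 against 6.25, 6.29 and 6.34; -0.11 without right controls 1 and 3). Over 16 perineuronal net genes 7 were higher and 9 lower (median -0.060, and -0.023 without right control 3). Non-overlapping members were 2 higher and 2 lower, 25% of the list against 7.48% of all genes. Dcc, a netrin receptor gene, differed by 0.19 (SE 0.077) and its ligand gene Ntn1 by -0.24 (SE 0.11), both without overlap. The 31 measured guidance genes had a median of 0.013. Of them 1 higher and 2 lower did not overlap (9.68%, against 7.48% of all genes).

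Tectal identity genes, which pattern the midbrain roof, had a median of 0.00 over 21 measured members, 9 higher and 12 lower. Pou4f1, a POU factor gene, read 5.16, 5.40 and 5.64 in controls and 4.80, 5.16 and 5.17 in deaf arrays (-0.35, SE 0.13). Pax3, a paired-box factor gene, read 5.11, 5.40 and 5.35 against 4.94, 5.19 and 4.77 (-0.32, SE 0.12). The arrays of both overlapped. In the list 2 other members were lower without overlap (9.52%, against 7.48% of all genes). The lowest difference of a member was -0.47. Without right controls 1 and 3 the median was -0.14.

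Glial, immune and vascular lists had medians near 0, and several changed sign with the arrays used. Medians were -0.039 for 17 astrocyte genes (Gfap, the astrocyte filament gene, -0.06, SE 0.10), -0.070 for 19 microglial genes (Aif1 -0.07, SE 0.11), -0.053 for 18 complement genes, -0.010 for 23 interferon-response genes and -0.078 for 14 endothelial genes. Non-overlapping members made up 5.88% of the astrocyte, 5.26% of the microglial, 11.1% of the complement, 0% of the interferon and 21.4% of the endothelial list, against 7.48% of all genes. Without right control 1 the endothelial median was 0.082, and the interferon median 0.052. Without right deaf 1 the complement median was 0.048. Medians without right controls 1 and 3 were 0.049 for endothelial, 0.073 for complement, 0.061 for interferon and 0.023 for microglial genes. C8a, a subunit of the complement pore, read 4.67, 4.47 and 4.48 in controls and 4.01, 4.33 and 4.14 in deaf arrays (-0.38, SE 0.13). Hbb-b1, a beta globin gene of red cells, read 8.75, 8.73 and 8.58 against 8.28, 8.47 and 7.89 (-0.48, SE 0.16; -0.31 without right deaf 3). Medians were -0.033 for 17 apoptosis genes (0.025 without right control 3) and 0.00 for 26 complex I genes.

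Genes with the smallest p outside the lists were mostly dim. Prdm9, a meiotic histone methyltransferase gene, read 4.17, 4.33 and 4.09 in controls and 4.71, 4.80 and 4.57 in deaf arrays (0.50, SE 0.094; left -0.10). Gast, the gastrin gene, read 3.38, 3.74 and 3.53 against 3.98, 4.26 and 3.85 (0.48, SE 0.12; 0.29 without right controls 1 and 3). Cant1, a calcium-activated nucleotidase gene and among the brighter of these, read 5.59, 5.56 and 5.50 against 5.90, 5.80 and 5.85 (0.30, SE 0.080). Tulp2 (0.31), Srpk3 (0.32), Actrt3 (0.49), Krt34 (0.48) and Tmem132d (0.38) were also higher without overlap, as were the olfactory receptor genes Or51ab3 (0.34), Or4k51 (0.39) and Or12j5 (0.49).

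Hist1h2af, a replication-dependent histone gene, had the largest lower value among genes that are not cerebellar or brainstem markers, with 4.40, 4.14 and 4.38 in controls and 3.11, 3.92 and 3.12 in deaf arrays (-0.92, SE 0.23). Tmprss5, a transmembrane serine protease gene also called spinesin, read 6.60, 6.30 and 6.62 against 6.05, 6.24 and 6.05 (-0.39, SE 0.10), and was at -0.19 without right controls 1 and 3. Sirpal1 (-0.63), Psma6-ps1 (-0.62), Cd209al3 (-0.52), Mcpt4l1 (-0.47), Lipi (-0.44), Or5w13b (-0.64) and Or4c15b (-0.58) were lower without overlap. Some of these belong to families of near-identical copies, where a probe may read more than 1 gene.

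The largest higher differences belonged to dim genes as well: Or13a27 (0.89, SE 0.25; 0.48 without right controls 1 and 3), Or52e7 (0.72, SE 0.23), Phb1l1 (0.69, SE 0.19), Gsta4l1 (0.64, SE 0.18) and Or8a1 (0.61, SE 0.22). Cyp2j4, an arachidonate epoxygenase gene, was brighter and read 5.37, 4.57 and 4.71 in controls and 5.37, 5.48 and 5.79 in deaf arrays (0.66, SE 0.20). Right control 1 equalled the lowest deaf array for Cyp2j4 at the precision shown. Whole families were centred near 0: the median was -0.007 over 1185 olfactory receptor genes, -0.025 over 159 vomeronasal receptor genes, 0.018 over 129 cytosolic ribosomal protein genes, 0.028 over 81 keratin genes, 0.015 over 346 solute carrier genes and -0.061 over 36 collagen genes, of which 25 were lower.

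**Figure D5:**
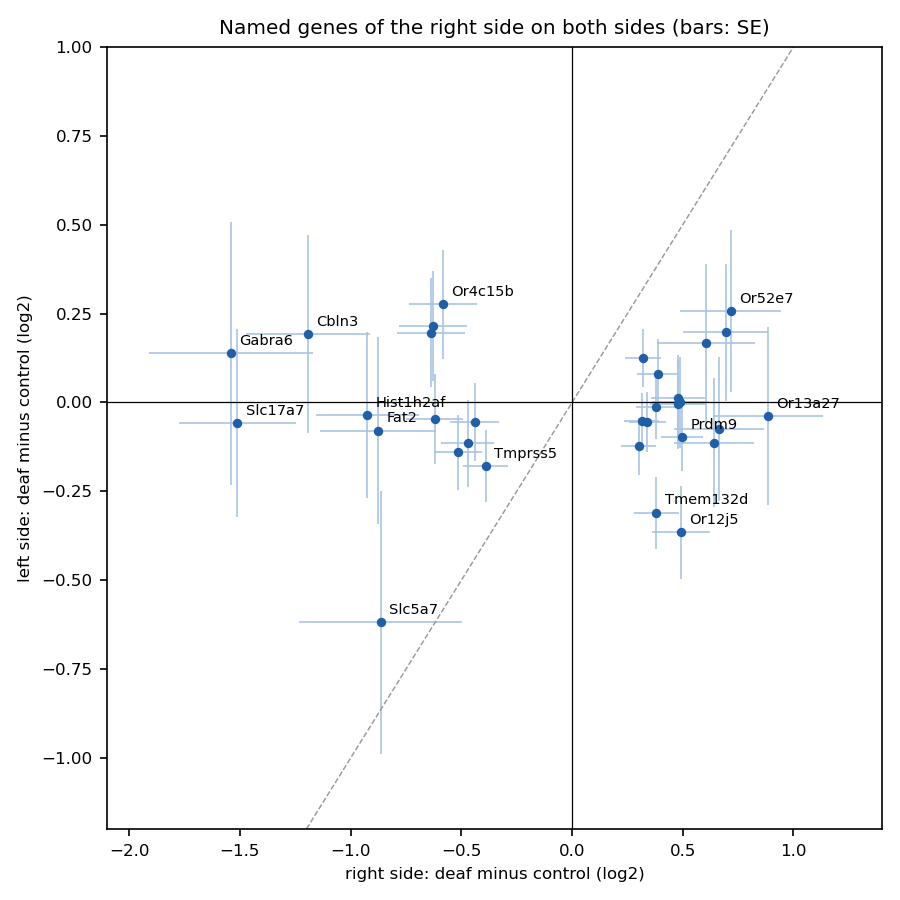
Log2 difference, deaf minus control, on the right (x axis) and left (y axis) for 32 genes named for the smallest p or the largest difference on the right; bars are SE and the dashed line marks equal differences. Slc17a7, Gabra6 and Cbln3 lie far to the left near 0 on the y axis, and Tmem132d, Or12j5 and Or4c15b have opposite signs on the left and the right.

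The right differences of these 32 genes were set against the 6 left arrays. For 18 of the 32 the right control mean lay outside the range of the left arrays while the right deaf mean lay inside it. For 4 genes, Tulp2, Or13a27, Or8a1 and Mcpt4l1, only the right deaf mean lay outside, for 9 both did, and for Slc5a7 neither did. Fkbp5 was among the 9, with a left range of 6.27 to 6.42 and right means of 6.04 in control and 6.42 in deaf arrays. Cbln3, Gabra6, Fat2, Hist1h2af and Cant1 were among the 18, and Slc17a7 and Prdm9 among the 9. The genes were chosen for their right difference, so these counts are a description.

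Precursor genes of microRNAs, of which 363 were measured, were higher for 191 and lower for 172, and 34 did not overlap, 21 higher and 13 lower (9.37%, against 7.48% of all genes). The probes read the precursor genes, not the mature products. The mature sequences of the 4 precursors described here are shown because their seed, bases 2 to 8 in capitals, sets which messages they can pair with; they are from RefSeq (GRCr8), 5′ to 3′.
rno-miR-708-5p: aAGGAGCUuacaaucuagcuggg
rno-miR-708-3p: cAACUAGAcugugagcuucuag
rno-miR-3085: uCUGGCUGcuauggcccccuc
rno-miR-132-5p: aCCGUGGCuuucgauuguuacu
rno-miR-132-3p: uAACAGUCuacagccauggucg
rno-let-7f-5p: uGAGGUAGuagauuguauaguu
rno-let-7f-2-3p: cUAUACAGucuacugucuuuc

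No seed was shared between these precursors. Mir132, whose products are known from activity-dependent neurons, read 4.06, 3.97 and 3.69 in controls and 3.44, 3.07 and 3.23 in deaf arrays, a difference of -0.66 (SE 0.18), with -0.32 on the left. Its deaf arrays all lay below its controls. Mir708 read 5.38, 4.91 and 4.58 against 5.73, 5.40 and 5.59 (0.61, SE 0.20; left 0.20). Mir3085 read 4.88, 4.67 and 5.05 against 5.32, 5.26 and 5.27 (0.42, SE 0.12), with -0.33 on the left. None of these passed. They were chosen after their values were seen.

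Mirlet7f2, a precursor of the let-7 family, had the smallest adjusted p of all genes for the difference between the sides. It read 2.15, 2.09 and 2.09 on the right controls and 1.77, 1.83 and 1.73 on the right deaf arrays, a difference of -0.33 (SE 0.072), while the left arrays read 1.78, 1.84 and 1.79 in controls and 2.36, 2.23 and 2.23 in deaf rats, a difference of 0.47. The right change minus the left change was -0.80 (SE 0.10; limma adjusted p = 0.0926), which did not pass. Its mean level was at percentile 0.809 of all genes, near the floor of the scale.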

How the data were processed

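Per the labels, total RNA was made into single-stranded cDNA, of which 5.5 ug was cut, biotinylated and run on Affymetrix arrays of 1 colour. The authors deposited log2 intensity values, already on a common scale: values of equal rank lay within 0.0995 of each other over the 12 arrays, and correlations between arrays were 0.982 to 0.993. The array model and the summarisation software were not stated in any source used here. Precision is limited by the array number. Of 29489 probes 18511 had 1 gene symbol, 575 several and 10403 none. The brightest probe stood for each of the 291 genes that had several, giving 18166 genes with no filter on dim ones. By Entrez identifier 18394 probes matched RefSeq, and 0 symbols changed.

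limma 3.58.1 in R 4.3.3 fitted 4 group means to all 12 arrays (8 residual and 3.79 prior degrees of freedom; median residual SD 0.152). Contrasts were deaf minus control on the right, on the left, and their difference, with Benjamini-Hochberg adjustment over 18166 genes at 0.05. SE is that of the fitted difference. Replicate numbers were not used as pairs.

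Members and the 52 gene lists (737 of 853 genes measured) were chosen with earlier results of these data known. Named genes were those past the threshold, up to 12 per direction with the smallest p, non-overlapping arrays and a difference of at least 0.3, the 6 largest per direction, and up to 4 members per list with those a list is known for. Predicted genes, microRNA precursors, ribosomal pseudogenes and receptor genes named Olr or Vom were skipped; olfactory receptor genes under newer symbols were not. Alternatives were quantile normalization, median centring, genes above the median level, the mean of probes, a robust variance trend, array weights, only the right arrays, a replicate block, each array left out in turn and, chosen after seeing the data, right controls 1 and 3 left out together.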

Additional observations from a re-analysis of the deposited data

Results flagged for a closer look

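For 5 of the 232 genes examined one by one, the 3 deaf arrays lay all on one side of the controls on the right and all on the opposite side on the left. The same holds for 69 of all 18166 genes (0.38%). Part of the 232 was chosen for non-overlapping right arrays, which is part of this criterion. Their share therefore cannot be compared with that of all genes. Tmem132d, a transmembrane protein gene, had a right change minus left change of 0.69, Or12j5, an olfactory receptor gene, of 0.86, and Or4c15b, another, of -0.86. For Ncan, which encodes the matrix proteoglycan neurocan, it was 0.22, with a right difference of 0.13 and a left one of -0.09. For the let-7 precursor gene Mirlet7f2 it was -0.80. By limma none of these differences between the sides passed: the adjusted p was 0.0926 for Mirlet7f2 and 1.00 for the other 4.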

How the results depend on the processing

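The count of 0 genes past the adjusted threshold on the right held under every alternative run, with adjusted p of at least 0.0619 (Slc17a7, without right control 1). At an unadjusted p under 0.05 there were 342 genes among those above the median level, and 674 to 1299 with 1 array left out, the highest without right control 1. Non-overlapping genes numbered 688 above the median level, 1358 to 3579 when 1 array was omitted and 8716 with right controls 1 and 3 both omitted, where fewer arrays make separation easier. On the left 1 gene passed above the median level, 1 with a robust variance trend and 0 to 1 with 1 array left out (without left deaf 3). With a replicate block the right comparison had 0 genes past the threshold and 762 at an unadjusted p under 0.05, and 1 gene, Mirlet7f2, passed for the difference between the sides (adjusted p = 0.0423). The labels do not say whether arrays with the same number share rats, or whether the left and right arrays of a number do. Deviations from the group means of same-numbered arrays had correlations of -0.13, -0.11 and 0.16 between right control and right deaf. They were 0.10, -0.01 and 0.06 between left and right control, and 0.15, -0.06 and -0.04 between left and right deaf. With so few arrays a group, these correlations cannot show whether arrays share rats. The numbers were not taken as pairs because the labels do not give pairing.

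With 1 array left out list medians ran from 0.10 to 0.19 for glucocorticoid-responsive genes (highest without right control 1), 0.017 to 0.16 for immediate early factors (lowest without right deaf 1), -0.14 to -0.056 for cholesterol synthesis, -0.14 to -0.072 for myelin (lowest in size without right deaf 1), -0.32 to -0.17 for granule cells and -0.081 to 0.024 for tectal identity. With array weights immediate early factors were at 0.14 and tectal identity at -0.085. Without right controls 1 and 3 the medians were -0.067 for cholesterol synthesis, -0.047 for granule cells and -0.14 for tectal identity. Over the 52 lists, the median of 26 changed sign with at least 1 right array left out and of 16 without right controls 1 and 3. The cause of these shifts was not tested. Of the 232 genes followed, 205 kept their sign under every alternative, 27 changed it when arrays were left out and 0 under another setting. These genes were chosen for a small p, a large difference or non-overlapping arrays on the right. Non-overlapping genes cannot change sign when arrays are left out, so the 205 is no evidence of stability. No detection calls were used, and differences of genes below the lower quartile (3.78) are limited by background.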

Other observations

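A right control and a right deaf array deviated alike from their group means. Over all genes, deviations from the group mean of right control 1 and right deaf 2 had a correlation of 0.34. This was the highest among pairs of a right control and a right deaf array, which otherwise ran from -0.24 to 0.16. The same-numbered right pairs had -0.13, -0.11 and 0.16. Genes are not independent replicates, and the arrays share a tissue. On right control 1 and right deaf 2 the raphe genes Tph2 (7.64 and 7.50) and Slc6a4 (6.94 and 6.67) and the meningeal score (0.48 and 0.44) were high. Left deaf 3 also read high for Tph2 (7.80) and Slc6a4 (7.19), but its meningeal score was -0.15. On left deaf 2 the meningeal score was 0.59 and Tph2 was at 5.53. Meningeal and raphe genes therefore did not move together on all arrays.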
